A study of Mus musculus with 8 samples.

Results

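Mitochondrial ribosomal protein genes are the nuclear genes that encode the protein part of the ribosome inside mitochondria. They were taken as every row of the deposited expression table whose gene symbol was Mrpl or Mrps followed by a number and at most 1 letter, which gave 77 of 38392 genes, 48 named Mrpl and 29 named Mrps. RNA was sequenced from cells sorted as eosinophils, the granulocytes that stain with eosin, of wildtype C57/BL6 mice, with 4 libraries from bone marrow and 4 from small intestine. The study describes the donors as separate female mice, with no treatment named and no age in the labels. Bone marrow eosinophils were sorted as CD11b+Ly6G-Ly6C-SiglecF+SSChi cells, and intestinal eosinophils as CD11b+MHC-II-SiglecF+SSChi cells after digestion of the tissue and enrichment on anti-CD11b beads, so that gate and handling cannot be told apart from tissue. The cDNA was amplified with the NuGEN Ovation system before sequencing.

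The mitochondrial ribosome translates the few proteins that mitochondrial DNA encodes, all of them subunits of the respiratory chain and the ATP synthase. Its rRNAs are transcribed from mitochondrial DNA, whereas every one of its proteins is made in the cytosol and imported. Some of these proteins descend from the bacterial ribosome, and others were added during the evolution of mitochondria and have no bacterial counterpart. The large subunit forms peptide bonds and carries the exit tunnel at the inner membrane, and the small subunit decodes the mRNA.

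Transcripts of these genes were lower in cells sorted as eosinophils from small intestine than in those from bone marrow, across both subunits. In the bone marrow cells, neutrophil precursor and cycling-cell marker lists took larger shares of reads than the eosinophil marker list, as given below. Of the 77 genes, 57 were lower at a Benjamini-Hochberg adjusted p under 0.05 in limma, 1 (Mrpl45) was higher and 19 did not pass. Among all 38392 genes, 12.9% were called lower and 22.0% higher. Among the 16215 genes averaging 10 or more reads per library, a level that all 77 reached, 28.6% were called lower and 34.6% higher. The median log2 difference, small intestine minus bone marrow, was -1.05 for the 77 genes, 0.03 for protein-coding genes averaging 10 or more reads and 0.37 for all genes. In 62 of the 77 genes every small intestine library lay below every bone marrow library. That arrangement held in 13.9% of all genes and in 5078 of the 16215 genes averaging 10 or more reads. In 2 of the 77 genes every small intestine library lay above every bone marrow library. This reverse arrangement held in 7797 of all 38392 genes and in 5845 of the 16215. The genes that fell spanned a wide range, with 39 at least 2-fold lower and 10 at least 4-fold lower, and the standard errors of the differences ran from 0.16 to 0.39. In sorted bulk samples, fewer cells of a type that holds much of an RNA and less of that RNA per cell cannot be told apart.

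**Figure D1:**
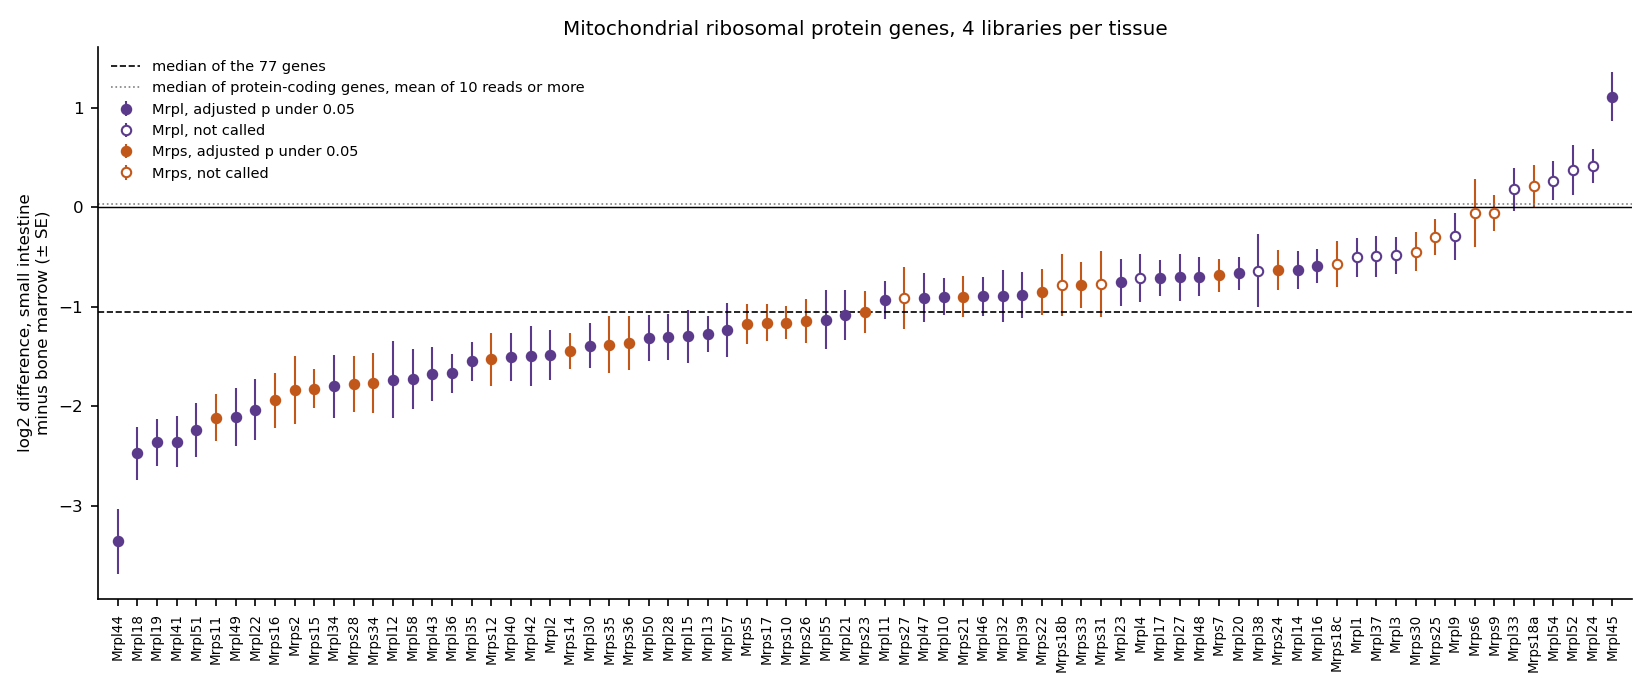
Log2 difference (small intestine minus bone marrow, y axis) of each of the 77 genes in ascending order (x axis), with bars of 1 standard error. Filled points passed an adjusted p of 0.05 in limma; the dashed line is the median of the 77 genes, -1.05, and the genes run from Mrpl44 at -3.36 to Mrpl45 at 1.12.

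The depth was 11508002 to 21289164 reads per library, of which 7498 to 35380 fell on the 77 genes. As a share of all reads, these genes took 0.169% ± 0.0059 (SD, n = 4) in bone marrow and 0.0703% ± 0.0093 in small intestine. Ribosomal RNA, in which the mitochondrial rRNAs mt-Rnr1 and mt-Rnr2 were counted, took 21.1% ± 2.01 and 12.9% ± 3.93 of the reads. Outside it the shares of the 77 genes were 0.214% ± 0.0039 and 0.0812% ± 0.0148, a ratio of 2.63. The lowest bone marrow library, at 0.208%, lay above the highest small intestine library, at 0.103%.

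The sorted populations were checked against markers of the cells they could hold, again as a share of reads outside rRNA. A list of 9 eosinophil genes took 0.0251 to 0.0439% in bone marrow and 0.134 to 0.165% in small intestine, with 5 of the 9 called lower and 3 higher there. In bone marrow, Ccr3, the eotaxin receptor, had only 45.9 to 102 normalised counts against 13285 to 19653 in small intestine, and Epx, the eosinophil peroxidase, had 350 ± 40.2 (SD, n = 4) against 20.6 ± 9.06. Il5ra, the interleukin 5 receptor, was also low in bone marrow (11 ± 5.31 against 1107 ± 222). Each tissue thus had little of some defining eosinophil transcripts. The summed share of the list was lower in every bone marrow library, but most of its genes went the other way. Of the 9 genes, 6 had negative differences, with a median log2 difference of -2.46. The differences ran from Ear1 (-4.28) to Ccr3 (7.83), so the sum does not stand for the list gene by gene. In contrast, 11 neutrophil precursor genes such as Elane and Mpo took 3.55 to 4.17% in bone marrow and 0.00723 to 0.00821% in small intestine, all 11 called lower. Their share was above that of the eosinophil list in bone marrow and below it in small intestine. A list of 20 genes of cycling cells took 0.772 to 0.832% in bone marrow and 0.0349 to 0.0967% in small intestine, all 20 called lower. Erythroid genes (8 of 10 called lower, 0.010 to 0.0126% against 0.000310 to 0.00105%) fell as well, and B and plasma cell genes split, with 2 lower and 2 higher of 8 (0.00302 to 0.00535% against 0.00395 to 0.0225%). Epithelial genes (11 of 11 called higher, 0.00174 to 0.00202% in bone marrow and 0.0240 to 0.175% in small intestine), macrophage and dendritic cell genes (12 of 13 higher, 0.0108 to 0.0130% against 0.217 to 0.303%) and fibroblast genes (6 of 7 higher, 0.000247 to 0.000792% against 0.00123 to 0.00602%) rose. None of the marker lists had a gene at or under 3 reads in all libraries. The part of these marker lists in the differences of the mitochondrial ribosomal protein genes between the tissues was not tested.

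**Figure D2:**
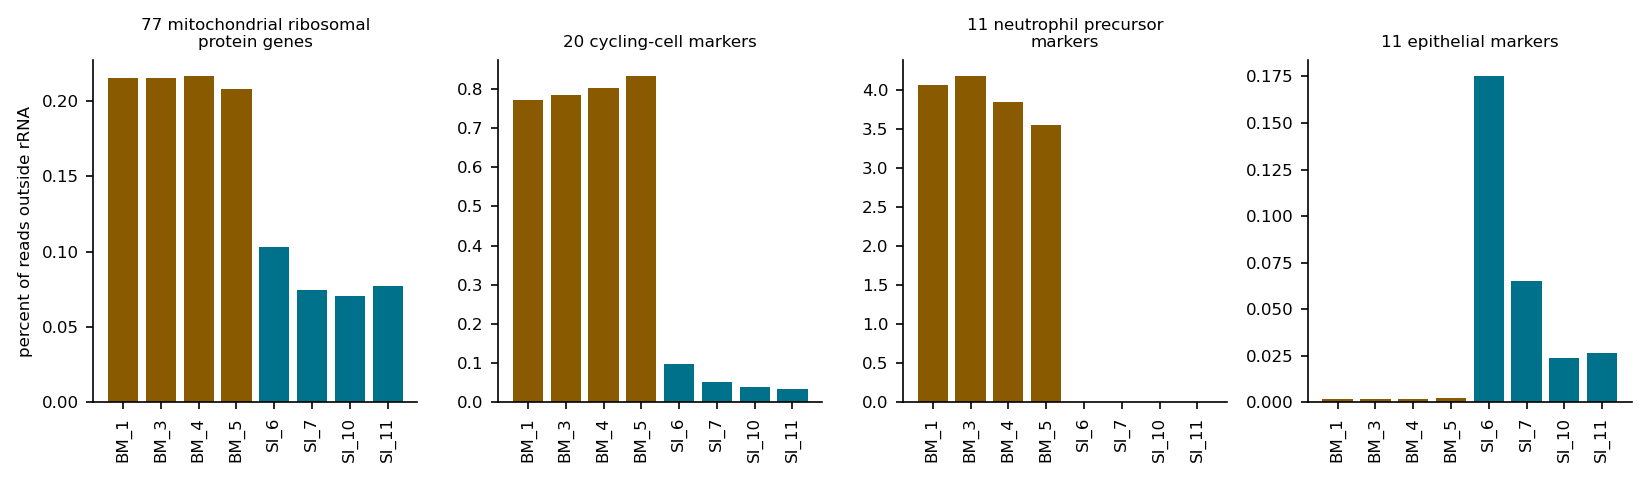
Percent of reads outside rRNA (y axis, from 0, a separate scale in each panel) taken by the 77 genes and by 3 marker lists in each library (x axis; brown, bone marrow; blue, small intestine). The 77 genes and the cycling-cell and neutrophil precursor markers are higher in all 4 bone marrow libraries, and among the small intestine libraries SI_6 is highest for the 77 genes, for cycling-cell markers and for epithelial markers.

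In the 77 genes the 4 small intestine libraries were less alike than the 4 bone marrow libraries. The median standard deviation of a gene over 4 libraries was 0.16 on the log2 scale in bone marrow and 0.36 in small intestine. SI_6 had the highest value of its tissue in 48 of the 77 genes, and SI_10 the lowest in 42. In bone marrow, BM_5 was lowest in 45 genes. SI_6 also had the highest share of its tissue in the epithelial (0.175% of reads outside rRNA), cycling-cell (0.0967%), macrophage and dendritic cell (0.303%), B and plasma cell (0.0225%), fibroblast (0.00602%) and erythroid (0.00105%) marker lists, and the lowest in the eosinophil list (0.134%). Without SI_6, 64 of the 77 genes were called lower and 2 higher.

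The gene with the largest difference was Mrpl44 (chr1:79776018-79781445, GRCm38, + strand), whose protein has a ribonuclease III fold and lies in the large subunit close to the exit tunnel. Normalised counts, that is reads divided by each library's size factor, were 443, 415, 429 and 327 in BM_1, BM_3, BM_4 and BM_5, and 69.9, 36.1, 25.2 and 24.9 in SI_6, SI_7, SI_10 and SI_11. All bone marrow libraries lay far above all small intestine libraries, with SI_6 highest among the latter. The log2 difference was -3.36 ± 0.32 (SE; adjusted p = 9.0e-05), a 10.3-fold lower mean in small intestine.

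The RefSeq promoters of 5 genes are shown as examples of the start regions from which these transcripts come, from 250 bases before to 50 bases after the RefSeq start in GRCm38.p6: the gene that fell most, the most abundant gene per kb of exon in bone marrow, a gene that shares its start region with another of the 77, a gene with both of the most frequent motifs, and the only gene that rose. Mrpl44 is at chr1:79775768-79776067 (+), Mrpl18 at chr17:12916042-12916341 (-), Mrps11 at chr7:78782881-78783180 (+), Mrps12 at chr7:28741772-28742071 (-) and Mrpl45 at chr11:97315466-97315765 (+), each written 5′ to 3′ on its own strand. Capitals mark the letters CCGGAAG, a core that ETS factors such as GABP recognise, or AAGATGGC, a core of the YY1 motif, on either strand.
Mrpl44: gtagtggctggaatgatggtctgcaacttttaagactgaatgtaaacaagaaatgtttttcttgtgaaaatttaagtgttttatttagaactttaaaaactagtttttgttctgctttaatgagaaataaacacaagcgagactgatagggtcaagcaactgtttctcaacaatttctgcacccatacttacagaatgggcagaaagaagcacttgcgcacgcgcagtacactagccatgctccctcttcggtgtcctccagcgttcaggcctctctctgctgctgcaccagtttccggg
Mrpl18: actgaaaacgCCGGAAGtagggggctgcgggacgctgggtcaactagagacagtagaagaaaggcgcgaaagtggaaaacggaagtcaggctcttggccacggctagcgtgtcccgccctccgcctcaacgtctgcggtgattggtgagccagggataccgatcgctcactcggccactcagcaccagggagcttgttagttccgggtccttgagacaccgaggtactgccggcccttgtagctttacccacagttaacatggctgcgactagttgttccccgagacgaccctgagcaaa
Mrps11: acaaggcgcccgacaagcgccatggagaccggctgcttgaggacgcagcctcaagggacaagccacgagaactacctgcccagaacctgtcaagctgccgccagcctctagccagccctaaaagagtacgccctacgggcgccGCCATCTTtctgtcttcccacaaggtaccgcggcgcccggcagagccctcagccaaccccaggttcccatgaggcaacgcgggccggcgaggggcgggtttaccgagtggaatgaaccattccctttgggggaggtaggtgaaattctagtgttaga
Mrps12: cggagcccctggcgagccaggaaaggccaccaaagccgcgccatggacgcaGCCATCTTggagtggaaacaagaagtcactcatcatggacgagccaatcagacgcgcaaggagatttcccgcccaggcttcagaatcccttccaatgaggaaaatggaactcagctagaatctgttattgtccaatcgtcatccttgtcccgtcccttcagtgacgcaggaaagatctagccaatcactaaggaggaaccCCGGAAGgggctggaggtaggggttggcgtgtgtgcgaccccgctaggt
Mrpl45: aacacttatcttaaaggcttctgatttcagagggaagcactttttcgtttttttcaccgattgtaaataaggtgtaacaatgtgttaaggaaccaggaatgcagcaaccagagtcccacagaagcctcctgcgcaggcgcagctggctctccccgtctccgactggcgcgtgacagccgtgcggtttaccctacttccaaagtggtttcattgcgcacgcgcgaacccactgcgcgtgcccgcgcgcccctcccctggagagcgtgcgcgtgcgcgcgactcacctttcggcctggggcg

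The Mrpl44 and Mrpl45 windows held none of the exact letters searched, although the former gene fell and the latter rose. Both windows hold GCGCACGC, which differs by a letter from the GCGCATGC searched for nuclear respiratory factor 1 and was not itself searched. In Mrps11 the YY1 core began 107 bases before the start, on the opposite strand. Mrps12 had that core 199 bases before the start and the ETS core 1 base after the start position.

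Promoter windows of the same kind were found for 68 of the 77 genes (74 windows, since some genes have several starts). Of these windows, 33.8% held CCGGAAG or its reverse complement, compared with 8.86% of all 32851 windows and 16.3% of windows of protein-coding genes averaging 10 or more reads. AAGATGGC was in 16.2% of the windows against 2.75% and 4.09%. GCGCATGC, a form of the core of the nuclear respiratory factor 1 (NRF1) motif, was in 10.8% against 2.71% and 4.83%. Forms that differ by a letter, such as GCGCACGC, were not searched. TATAAA, the TATA box core, was in 6.76% against 13.6% and 7.78%. The ETS and YY1 cores did not overlap each other in any of the 74 windows. Median G+C was 58.5% in the windows of these genes, 52.7% in all windows and 60% in those of the protein-coding genes averaging 10 or more reads.

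The size of the fall was set beside the presence of these letters. The 25 genes with the ETS core had a median log2 difference of -0.91 and the 43 without it -0.93. For the YY1 core the medians were -1.20 (12 genes) and -0.92 (56 genes), and for the NRF1 core -0.83 (8 genes) and -1.10 (60 genes). These values describe exact letters in a window and were not tested. A gene counted as without the NRF1 core can hold a near form of it, as Mrpl44 and Mrpl45 do.

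After Mrpl44, the largest falls in the large subunit were in Mrpl18, Mrpl19, Mrpl41 and Mrpl51. Mrpl18 (uL18m), a protein of the central protuberance, had 1186, 1271, 1243 and 1055 normalised counts in bone marrow against 269.6, 214, 128 and 266 in small intestine in the library order above. It had the highest level per kb of exon of the 77 genes in bone marrow, and it fell by 2.47 ± 0.27 on the log2 scale (adjusted p = 0.00016). Mrpl19 (bL19m), at the interface between the subunits, had 899, 864, 984 and 773 normalised counts in bone marrow against 222, 147, 123 and 196 in small intestine. These groups were far apart, with a log2 difference of -2.36 ± 0.23 (adjusted p = 0.00010). Of the exon bases of Mrpl19, 36.0% lie opposite exons of Gcfc2, and the strand setting of the counting is not given in the sources used here.

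Mrpl41 and Mrpl51 have no bacterial counterpart. Mrpl41, whose protein was also described as a partner of Bcl-2, had 344, 367, 317 and 276 normalised counts in bone marrow against 81.9, 38.8, 58.0 and 71.1 in small intestine (log2 difference -2.36 ± 0.26, adjusted p = 0.00017). Mrpl51 had 476, 547, 580 and 512 in bone marrow and 176, 80.4, 85.3 and 115 in small intestine (-2.24 ± 0.27, adjusted p = 3.0e-04). In both genes the lowest bone marrow library was more than the highest small intestine library.

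**Figure D3:**
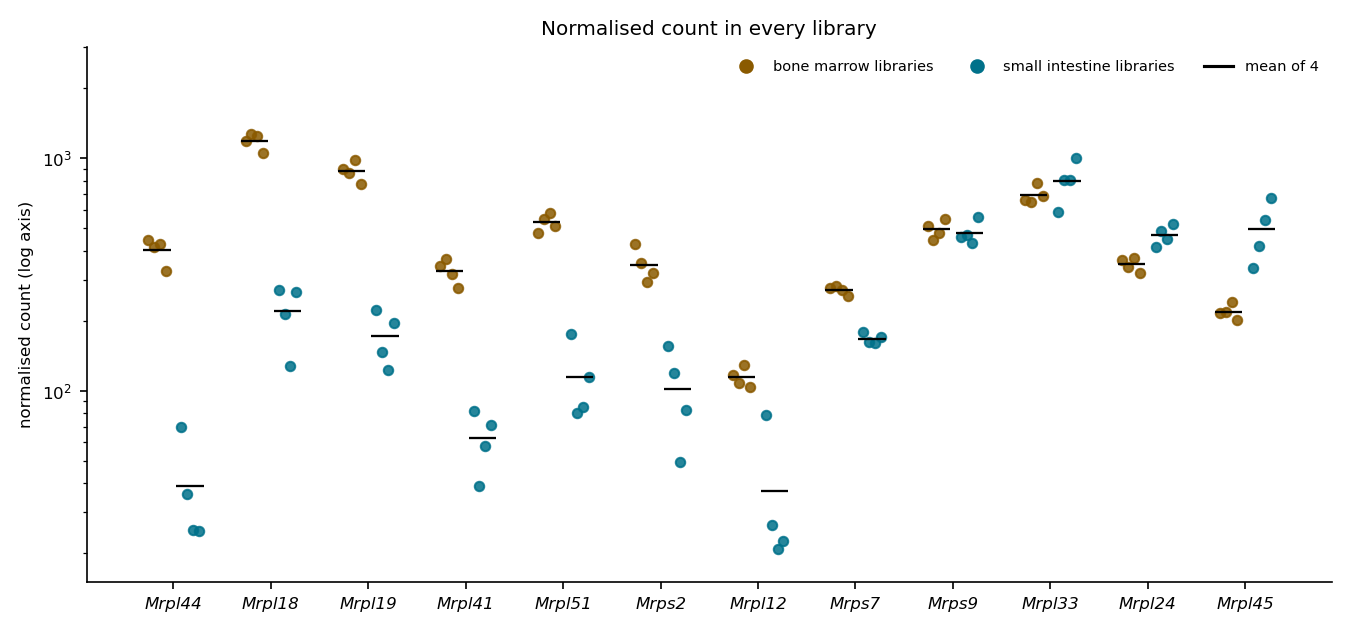
Normalised count (log axis) of 12 of the genes in each library; within a group, points are BM_1, BM_3, BM_4, BM_5 (brown) or SI_6, SI_7, SI_10, SI_11 (blue) from left to right, and the bar is the mean of 4. The tissues are apart from Mrpl44 to Mrps7, overlap in Mrps9 and Mrpl33, and are apart in the other direction in Mrpl24 and Mrpl45.

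Transcripts for the stalk of the large subunit, where translation factors dock, were lower as well. Mrpl12 (bL12m), the stalk protein, which also binds the mitochondrial RNA polymerase, had 117, 108, 129 and 104 normalised counts in bone marrow against 78.6, 26.3, 20.8 and 22.5 in small intestine. SI_6 stood apart from the other small intestine libraries in this gene. Its log2 difference was -1.73 ± 0.39 (adjusted p = 0.0078), the widest standard error of the 77 genes. Mrpl10 and Mrpl11, which form the base of the stalk, fell less, by 0.90 ± 0.18 (adjusted p = 0.0050) and 0.93 ± 0.19 (adjusted p = 0.0055). For Mrpl3 (uL3m), near the site of peptide bond formation, the means were 424 ± 33.4 and 304 ± 45.1 normalised counts (SD, n = 4) and the difference of -0.48 ± 0.19 did not pass (adjusted p = 0.080), although the libraries of the tissues did not overlap. Mrpl58, also known as Ict1, a hydrolase that releases peptides from stalled mitochondrial ribosomes, fell by 1.72 ± 0.30 (adjusted p = 0.0022).

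Mrpl45 (chr11:97315716-97329920, + strand) was the exception. Its protein, related to the import component Tim44, lies at the tunnel exit and attaches the ribosome to the inner membrane. Normalised counts were 216, 217, 240 and 201 in bone marrow and 337, 419, 542 and 676 in small intestine. Every small intestine library lay above every bone marrow library, and SI_6, highest for most of the other genes, was here the lowest of its tissue. The log2 difference was 1.12 ± 0.25 (adjusted p = 0.0075), a 2.26-fold higher mean. With each library centred on the median of all its genes, the difference of Mrpl45 was 0.22 and was not called.

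Another 5 genes had differences above 0 that did not pass. Mrpl24 (uL24m), an early binding protein at the tunnel exit in the bacterial ribosome, had 365, 339, 370 and 322 normalised counts in bone marrow against 415, 487, 451 and 519 in small intestine. These groups did not overlap, but the difference of 0.42 ± 0.17 was not called (adjusted p = 0.10), and it was called higher without BM_5, without SI_6 or without SI_10. Of the exon bases of Mrpl24, 26.3% lie opposite exons of Rrnad1. Mrpl52 (0.38 ± 0.25), Mrpl54 (0.27 ± 0.19), Mrps18a (0.21 ± 0.21) and Mrpl33 (0.18 ± 0.21) had overlapping libraries. The sign of all 5 turned when each library was centred on the median of all its genes, which moved the median difference of all genes from 0.37 to -0.53. At the other side of 0, Mrps9 (uS9m) had 509, 443, 478 and 549 normalised counts in bone marrow against 456, 467, 430 and 558 in small intestine, and Mrps6 (bS6m) had 36.3 ± 8.99 and 37.0 ± 19.5 (SD, n = 4). Their differences were -0.05 ± 0.18 and -0.05 ± 0.34, with adjusted p values of 0.84 and 0.92.

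In the small subunit, 19 of 26 genes fell and none was called higher. The largest difference was that of Mrps11 (uS11m), with 124.7 ± 5.86 normalised counts in bone marrow against 26.8 ± 8.41 in small intestine (SD, n = 4), a log2 difference of -2.12 ± 0.24 (adjusted p = 0.00020). Mrps2 (uS2m) had 425, 353, 292 and 322 normalised counts in bone marrow against 156, 119, 49.2 and 83.0 in small intestine, and fell by 1.84 ± 0.35 (adjusted p = 0.0033). Mrps12 (uS12m), which contributes to accurate decoding, had 221, 187, 239 and 167 in bone marrow and 91.7, 62.4, 43.8 and 81.8 in small intestine, and fell by 1.53 ± 0.27 (adjusted p = 0.0022). In these genes the tissues were apart in every library.

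Mrps7 (uS7m), a protein of the head of the small subunit, showed a smaller and more even difference. It had 277, 283, 271 and 255 normalised counts in bone marrow against 178, 162, 161 and 169 in small intestine, with no overlap. The log2 difference was -0.68 ± 0.16 (adjusted p = 0.011), with the smallest standard error of the 77 genes. Mrps27, which has pentatricopeptide repeats, had 117 ± 9.81 and 64.7 ± 29.0 normalised counts (SD, n = 4) and narrowly missed the threshold (-0.91 ± 0.32, adjusted p = 0.054). Its adjusted p was under 0.05 when only genes averaging 10 or more reads were tested.

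The bacterial protein S18 has 3 relatives in mammalian mitochondria. Mrps18c, the one in its place in the small subunit, differed by -0.57 ± 0.23 (adjusted p = 0.092), Mrps18b, also in the small subunit, by -0.78 ± 0.31 (adjusted p = 0.086), and Mrps18a, which sits in the large subunit, by 0.21 ± 0.21 (adjusted p = 0.48). None of the 3 passed the test, and the libraries of the tissues overlapped in each. Mrps30, named for the small subunit but also located in the large one, had 163 ± 17.7 and 119.6 ± 18.5 normalised counts (SD, n = 4; -0.45 ± 0.20, adjusted p = 0.12). Mrps36, whose product is now regarded as a component of the 2-oxoglutarate dehydrogenase complex rather than of the ribosome, fell by 1.36 ± 0.27 (adjusted p = 0.0046). Leaving Mrps36 aside, the large subunit had 37 genes lower and 1 higher of 50, and the small subunit 19 lower of 26.

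The falls included transcripts for proteins of bacterial descent as well as for those particular to mitochondria. Of 46 genes with a counterpart in the bacterial ribosome, 37 were lower and none higher, with a median log2 difference of -1.10. Of 30 without one, 19 were lower and 1 higher, with a median of -0.90. Both medians were below the 0.03 of protein-coding genes averaging 10 or more reads. The largest spread was in the 20 large subunit genes without a bacterial counterpart, whose standard deviation of 1.08 held both Mrpl44 and Mrpl45. A difference between these classes was not tested.

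Levels per length, as normalised counts per kb of exon, varied widely among the 77 genes. They ran from 5.76 (Mrpl23) to 850 (Mrpl18) in bone marrow, with a median of 92.6, and from 1.44 (Mrps34) to 215 (Mrpl34) in small intestine, with a median of 46.4. The 5 highest in bone marrow were Mrpl18, Mrpl34 (708), Mrpl36 (497), Mrpl41 (367) and Mrps21 (367). In small intestine they were Mrpl34, Mrpl24 (207), Mrps21 (196), Mrpl45 (190) and Mrpl18 (157). The order of the genes was broadly kept, with a Pearson correlation of the log2 levels per kb between the tissues of 0.80 over the 77 genes, which share libraries and exon lengths. Mrpl44 went from rank 9 in bone marrow to rank 62, and Mrpl45 from rank 42 to rank 4.

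**Figure D4:**
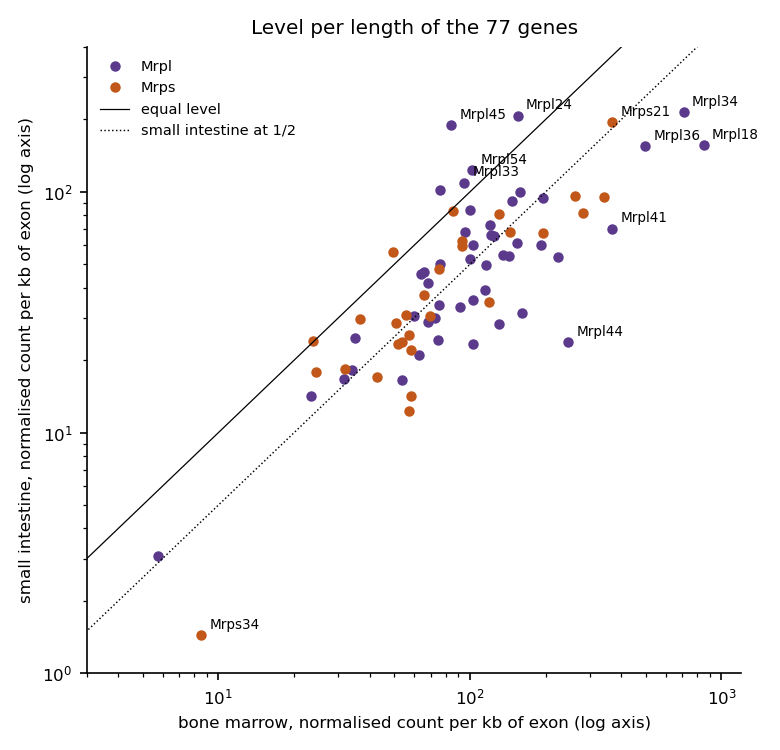
Mean normalised count per kb of exon of each of the 77 genes in bone marrow (x axis) and small intestine (y axis), both on log axes. The solid line marks equal levels and the dotted line a small intestine level at 1/2 of bone marrow; the median ratio of bone marrow to small intestine was 2.07, with Mrpl44 far below the lines and Mrpl45 above both.

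Exon length differed between these genes and others. The median exon length was 2533 bases for the 77 genes and 4568.5 for protein-coding genes averaging 10 or more reads. Over all such protein-coding genes, the median log2 difference was -0.27 in the shortest tercile, -0.04 in the middle and 0.38 in the longest. The shares of them called lower were 37.1%, 32.4% and 23.2%. The 77 genes had medians of -1.10 (40 of 52 called lower), -0.89 (9 of 13) and -0.93 (8 of 12) in the same terciles, so that they lay below the other genes of like length in each. The part of length in their differences was not tested further.

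Many of these genes start next to another gene on the opposite strand. For 33 of them a protein-coding gene started within 1000 bases in the opposite direction. Of these 33 neighbours, 18 were lower, 5 higher and 10 not called, and 15 of the pairs were lower on both sides. Among all protein-coding genes averaging 10 or more reads, 30.9% were lower and 33.1% higher. Mrps11 and Mrpl46 form such a pair with each other, counted from both sides here, and both fell (-2.12 ± 0.24 and -0.90 ± 0.19). Neighbours that fell further than the ribosomal protein gene, named after their values were seen, included Ncapd2, a condensin subunit beside Mrpl51 (-3.72 ± 0.36), Ska3, a kinetochore protein beside Mrpl57 (-3.77 ± 0.36), and Eme1, a DNA repair endonuclease subunit beside Mrpl27 (-2.85 ± 0.27).

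In 5 pairs the ribosomal protein gene was lower and its neighbour higher. Wdfy1, beside Mrpl44, differed by 0.65 ± 0.19 (adjusted p = 0.027), and Pnpla7, a lysophospholipase beside Mrpl41, by 2.90 ± 0.22 (adjusted p = 2.4e-05). The others were Klc4, a kinesin light chain beside Mrpl2 (1.39 ± 0.30), Gga3, a sorting adaptor beside Mrps7 (0.68 ± 0.17), and Tmem63b, an ion channel beside Mrpl14 (2.21 ± 0.20).

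Genes for other parts of mitochondrial translation were set beside the ribosomal proteins. As a background for the counts of this and the following lists, 30.9% of protein-coding genes averaging 10 or more reads were lower and 33.1% higher. Of 5 ribosomal proteins with other symbols, 4 were lower, with Gadd45gip1 lowest (-2.23 ± 0.21, adjusted p = 8.0e-05), whereas Dap3, a GTP-binding protein of the small subunit, had 430 ± 39.3 and 418 ± 43.3 normalised counts (SD, n = 4; -0.04 ± 0.18, adjusted p = 0.88). Of 16 translation factors 10 were lower and none higher, led by the release factor genes Mtrf1 (-2.31 ± 0.31) and Mtrf1l (-2.08 ± 0.33), and at the other end Slirp had -0.26 ± 0.20 (adjusted p = 0.35). Tufm, the elongation factor Tu of mitochondria, fell by 0.95 ± 0.26 (adjusted p = 0.020). Of 20 genes for charging mitochondrial tRNAs, 8 (40%) were lower and 1, Fars2, was higher (0.64 ± 0.21, adjusted p = 0.045), with Yars2 lowest (-2.14 ± 0.29). The count of 8 became 5 without BM_1, BM_3 or BM_4, 12 without SI_6, 17 with each library centred on the median of all its genes and 16 with read shares outside rRNA, and the first of these scalings gave 16 translation factors lower.

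Of 25 genes for building the ribosome and modifying its rRNA, 9 (36%) were lower and 5 (20%) higher. The share lower was near the 30.9% of protein-coding genes averaging 10 or more reads. The lower ones numbered 17 with each library centred on the median of all its genes and 18 with read shares outside rRNA. Noa1, a GTPase of small subunit assembly, had 459, 477, 624 and 495 normalised counts in bone marrow against 220, 103, 76.6 and 93.6 in small intestine (-2.14 ± 0.33, adjusted p = 0.0011). Ddx28, an RNA helicase of large subunit assembly, went the other way, from 119.5, 94.6, 119 and 80.0 to 748, 965, 1027 and 1236 (3.22 ± 0.23, adjusted p = 1.9e-05). The other 4 that rose were Nsun4, an rRNA methyltransferase (2.60 ± 0.25), Tfb1m, which dimethylates the small subunit rRNA (1.42 ± 0.22), the assembly factor gene Mettl17 (1.14 ± 0.21) and the pseudouridine synthase Trub2 (0.81 ± 0.22).

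Both ribosomal RNAs encoded by mitochondrial DNA had differences that did not pass, with mt-Rnr1 at -0.32 ± 0.28 (adjusted p = 0.44) and mt-Rnr2 at -0.38 ± 0.27 (adjusted p = 0.33). Of the 13 mitochondrial mRNAs listed, 11 were measured, and none of the 11 was called in either direction. Only 7 of the 11 averaged 10 or more reads, from mt-Nd5 (-0.30 ± 0.25) to mt-Nd2 (0.53 ± 0.26). The direction and the calls of these mRNAs depended on the scaling, with 4 called lower when each library was centred on the median of all its genes. The lowest and highest of all 11 were mt-Nd4l (-0.31, at most 2 reads in any library) and mt-Nd2.

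Genes that transcribe and keep mitochondrial DNA mostly fell, with 7 lower and 2 higher of 12. Ssbp1, the single-stranded DNA-binding protein, was lowest (-1.74 ± 0.25, adjusted p = 0.00075), and Tfam, the packaging and transcription factor (-0.76 ± 0.20, adjusted p = 0.016), and Polrmt, the RNA polymerase (-0.91 ± 0.27, adjusted p = 0.029), were also lower. Polg2, the accessory subunit of the DNA polymerase, was highest (0.98 ± 0.19, adjusted p = 0.0044).

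Transcription factors linked to mitochondrial biogenesis were split, with 4 lower and 3 higher of 9. Myc had 2647 ± 251 normalised counts in bone marrow against 645 ± 120 in small intestine (SD, n = 4) and fell by 2.05 ± 0.21 (adjusted p = 0.00012). Gabpa, the DNA-binding subunit of GABP, fell by 1.01 ± 0.18 (adjusted p = 0.0021), while Gabpb1, its partner subunit, rose by 2.06 ± 0.21 (adjusted p = 0.00011). Nrf1, nuclear respiratory factor 1, had 840.5 ± 86.4 and 935 ± 91.7 normalised counts (0.15 ± 0.18, adjusted p = 0.52). Ppargc1a, the coactivator PGC-1 alpha, had 5.36, 0.652, 0 and 9.30 normalised counts in bone marrow against 258, 154, 62.4 and 33.2 in small intestine (4.27 ± 0.77, adjusted p = 0.0026), with SI_6 highest.

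Beside these, cytosolic ribosomal proteins had 72 lower and 1 higher of 80, with a median log2 difference of -1.31. Nuclear subunits of the respiratory chain had 31 (36.9%) lower and 4 higher of 84, with a median of -0.59. Their share lower was near the 30.9% of protein-coding genes averaging 10 or more reads. The count of 31 became 20 without BM_1, 45 without SI_6, 62 with each library centred on the median of all its genes and 60 with read shares outside rRNA. The 77 mitochondrial ribosomal protein genes had 57 lower and a median of -1.05. These lists share the same libraries, and a difference between them was not tested.

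**Figure D5:**
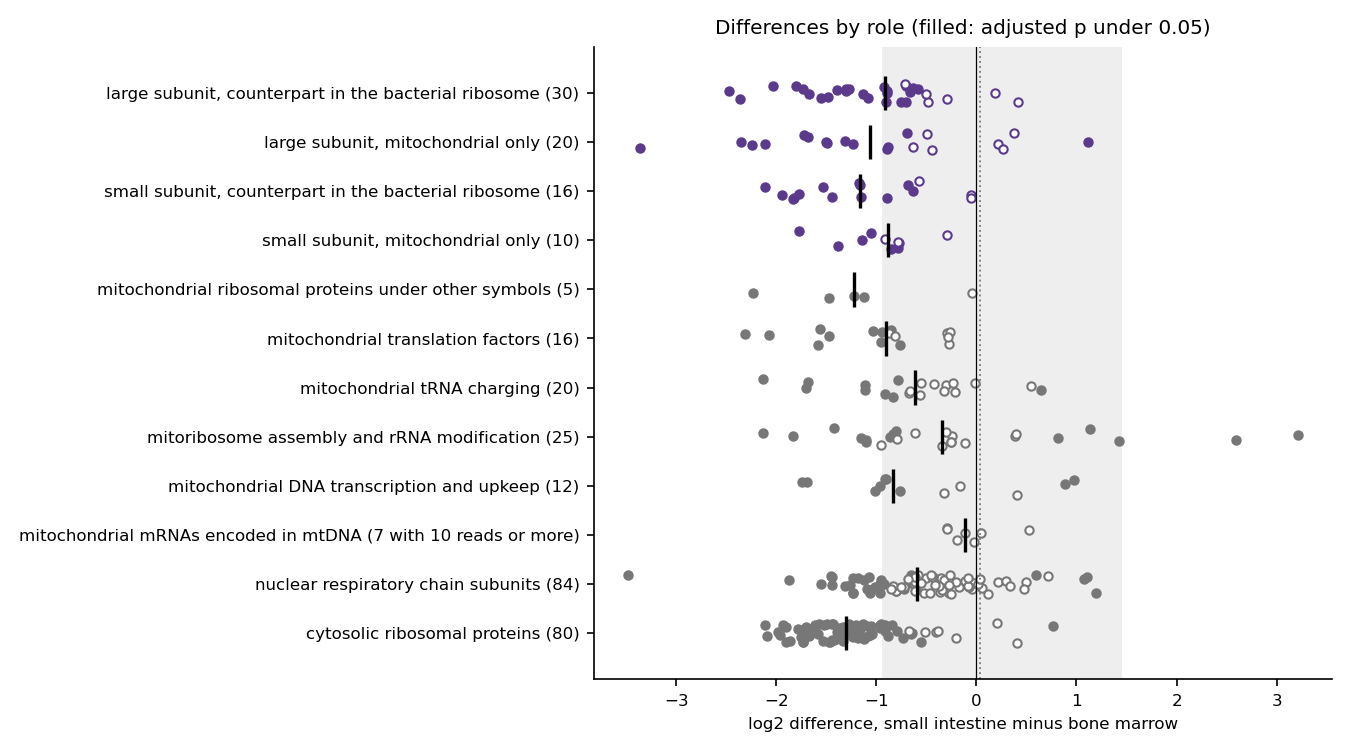
Log2 difference (x axis, small intestine minus bone marrow) of each gene by role (y axis, number of genes in parentheses; points are spread vertically for legibility), with black bars at the list medians; purple rows are the mitochondrial ribosomal proteins by class and grey rows are other lists. The grey band spans the middle 50% of protein-coding genes averaging 10 or more reads and its dotted line their median of 0.03; the medians of all 4 ribosomal classes lie near -1, while the 7 mitochondrial mRNAs that averaged 10 or more reads lie around 0.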

How the data were processed

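The deposited table held log2 values on the variance-stabilised scale of DESeq2, made by the authors (R 4.0.3 per the labels) from reads counted per gene on GRCm38 with Ensembl release 86 annotation through nf-core/rnaseq; the sources do not name the aligner, the strand setting or the handling of multi-mapping reads. The transformation was inverted to reads per gene, of which 100% were whole within 0.05. No count model was fitted as the main test because the deposited values are log2. All 38392 genes were fitted with limma 3.58.1 in R 4.3.3 (4 libraries per tissue, no covariate, Benjamini-Hochberg adjustment, threshold 0.05), and the fit was tested on simulated data. Columns could be matched to a tissue but not to a single sample. Exon lengths and coordinates came from GENCODE M21 and promoters from RefSeq. Genes were named by rank of difference, abundance, values set apart, and role. The members, lists and the naming rule were chosen with earlier results of these data known. The sources give donors as separate mice, so p-values measure the spread between 4 libraries per tissue. Alternatives covered scaling, filtering, the limma prior, voom on recovered reads and leaving out each library.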

Additional observations from a re-analysis of the deposited data

Results flagged for a closer look

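In 7 of 158 groups of 4 libraries the highest or lowest library was set apart from the others, with a gap to the nearest library, as a share of the whole range of the group, past Dixon's 95% critical value for 4 samples, where chance gives about 7.9. In small intestine SI_6 was the highest library for Mrpl35 (0.9736), Mrps5 (0.904) and Mrpl12 (0.8304). Mrpl35 had 116 normalised counts in SI_6 against 78.2 to 79.0 in the other 3 libraries, and Mrps5 had 222 against 147 to 153. In bone marrow BM_3 was highest for Mrps14 (0.9006), BM_4 lowest for Mrpl30 (0.8716) and BM_5 lowest for Mrpl2 (0.8935). BM_5 was also set apart in the share of reads outside rRNA that fell on the 77 genes (0.8389), although that share, 0.208%, differed little from the 0.215 to 0.216% of the other 3. All 6 genes were lower in small intestine, and the libraries of the tissues did not overlap in any of them.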

How the results depend on the processing

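Of the 57 genes called lower, none changed sign in the 16 other settings and 47 were called lower in each of them. Leaving out 1 library at a time gave 48 to 64 genes lower, 1 to 2 higher and a median difference from -1.16 to -0.94; the fewest came without BM_1 and the most without SI_6. Mrps6 turned sign without BM_3, SI_10 or SI_11 (to 0.057, 0.11 and 0.060; all omissions, -0.35 to 0.11). With the same omissions, genes called lower ranged from 19 to 26 and 12 to 15 in the large subunit with and without bacterial counterpart, 12 to 13 and 4 to 9 in the small subunit, 4 to 4 under other symbols, 8 to 10 for assembly, 8 to 11 for translation factors, 5 to 12 for tRNA charging, 6 to 7 for mitochondrial DNA upkeep, 0 to 0 for mitochondrial mRNAs, 64 to 75 for cytosolic ribosomal proteins and 20 to 45 for the respiratory chain. The respiratory chain count was lowest without BM_1 and that of small subunit genes without bacterial counterpart was highest without SI_6.

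With each library centred on the median of all its genes, 69 of the 77 genes were lower and 0 higher, with a median of -1.95; Mrpl33 (-0.72), Mrps18a (-0.69), Mrpl54 (-0.63), Mrpl52 (-0.52) and Mrpl24 (-0.48) turned sign, and 10 small subunit genes without bacterial counterpart, 17 assembly, 16 translation factor, 17 tRNA charging, 4 mitochondrial mRNA and 62 respiratory chain genes were lower. Over all genes, 63.2% of calls were higher in the main analysis and 29.5% with this centring, 45.8% with quantile normalisation and 45.7% with read shares outside rRNA on a log2 scale. With the last, 69 were lower, Mrpl33 (-0.22), Mrps18a (-0.18), Mrpl54 (-0.11) and Mrpl52 (-0.0049) turned sign, the same lists gave 10 small subunit, 18 assembly, 16 tRNA charging, 2 mitochondrial mRNA and 60 respiratory chain genes, and the ratio of shares was 2.63 against 2.40 over all reads. Quantile normalisation gave 62 lower, 3 mitochondrial mRNAs lower and Mrps9 at 0.021. The members called higher were 2 (Mrpl45 and Mrpl24) with quantile normalisation, with a prior that follows mean expression, with voom and with only genes averaging 10 or more reads. Centring on the median of genes averaging 10 or more reads, chosen after seeing the data, gave 59 lower. The cause of these changes was not tested.

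No paired analysis was made, because the sources give the donors of the tissues as separate mice and the columns carry no library number shared between the tissues. At 20.8 to 129 normalised counts, as in Mrpl12, or 1 to 27 reads, as in Mrps34, depth limits the precision; the strand of the counting is not known, and 9 genes share over 20% of their exon bases with another gene.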

Other observations

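Rows for 6 processed pseudogenes of these genes had at most 13 reads in any library (Mrpl23-ps1, -1.13, adjusted p = 0.099), and none was called. Mrpl23 itself, at 28.1 ± 7.97 and 14.9 ± 2.56 normalised counts (SD, n = 4), was called lower at an adjusted p of 0.039 and lost the call in several settings.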
